A study of Caenorhabditis elegans with 2 samples.

Results

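On the X chromosome of Caenorhabditis elegans, 1505 of the 14658 peaks in the pooled list of a ZFP-2 ChIP-seq experiment had their summits away from promoters and small RNA genes. By the submitters' description, that list also holds background calls. A peak here is an entry of the list and need not be a ZFP-2 binding site. A summit, the highest point of a peak, counted as away from promoters when it lay outside the window from 1000 bp upstream to 200 bp downstream of every annotated protein-coding 5′ end. It also had to lie more than 250 bp from every tRNA, snoRNA and snRNA gene. Of the 2401 pooled peaks on X, 725 (30.2%) stood in promoter windows and 171 others near small RNA genes, which left the 1505 (62.7%). On the 5 autosomes together, the same rule kept 7387 of 12239 peaks (60.4%). No measured strength entered the choice of these peaks.

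The experiment mapped where ZFP-2, a C2H2 zinc finger protein, sits on DNA. Whole hermaphrodites of strain OP534 were used, with the genotype unc-119(tm4063) III and the transgene wgIs534, which carries ZFP-2 with GFP and FLAG at its C terminus. They were collected as L4 larvae, 52 hours after synchronization by L1 starvation, sonicated and precipitated with an antibody against GFP. There were 2 libraries, labelled as biological replicates 1 and 2, and 1 group, so there is no contrast between conditions, and whole animals give no cell type. Both replicates and the chromosomes compared here come from that 1 transgenic strain.

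C2H2 zinc fingers are small protein folds, each held by a zinc ion, that often read DNA sequence in tandem. The X chromosome of the worm has a regulation of its own: in hermaphrodites a condensin-like dosage compensation complex lowers transcription from both X chromosomes. That complex is loaded at sites called rex sites, which carry copies of a DNA motif that is enriched on X and includes the letters GCGCAGGG. Sites of open chromatin are also known to be recovered with many tagged proteins. No list of rex sites, no chromatin map and no precipitation from untagged animals was used here, so overlap with rex sites was not tested, and ZFP-2 binding and general recovery of open sites cannot be told apart.

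The strongest of these peaks had a stretch of letters in common, and 10 summits are shown first for that reason. These are not the 10 strongest. In the order shown, they rank 1, 3, 4, 5, 8, 9, 2, 31, 11 and 27 by strength among the X peaks outside promoters. Each sequence is the plus strand of ce11 (the WBcel235 assembly), 60 bases to either side of the summit, 5′ to 3′. Capitals mark GCGNAGGG, where N is any base, or its reverse complement, and the other word GAGACGCA or its reverse complement TGCGTCTC. The first 8 hold GCGNAGGG. The last 2 are shown for contrast: the summit between T27A8.7 and T27A8.2 holds neither word in this stretch, and the one between tnt-3 and dct-1 holds only GAGACGCA.
mom-1 intron, chrX:6296526-6296646: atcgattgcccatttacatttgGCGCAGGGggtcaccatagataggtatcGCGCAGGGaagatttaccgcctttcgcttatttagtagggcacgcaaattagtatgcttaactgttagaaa
between W04G3.11 and W02H3.3, chrX:11094150-11094270: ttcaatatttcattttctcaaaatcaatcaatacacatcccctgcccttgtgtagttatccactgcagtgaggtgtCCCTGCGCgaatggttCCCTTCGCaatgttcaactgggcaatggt
between gtr-1 and F25E2.2, chrX:806606-806726: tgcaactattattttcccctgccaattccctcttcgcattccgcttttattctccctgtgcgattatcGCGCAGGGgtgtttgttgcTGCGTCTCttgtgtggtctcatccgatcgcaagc
between F20B6.9 and hpk-1, chrX:4209218-4209338: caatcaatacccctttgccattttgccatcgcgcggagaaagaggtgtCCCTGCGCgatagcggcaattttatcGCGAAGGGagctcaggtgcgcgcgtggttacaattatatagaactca
Y41G9A.17 intron, chrX:2997055-2997175: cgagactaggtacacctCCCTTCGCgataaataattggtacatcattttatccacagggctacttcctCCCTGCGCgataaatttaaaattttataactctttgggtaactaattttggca
pks-1 exon, chrX:5429499-5429619: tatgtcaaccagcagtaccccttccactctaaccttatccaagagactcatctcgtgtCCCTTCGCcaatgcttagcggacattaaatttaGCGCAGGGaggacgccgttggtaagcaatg
between adm-2 and K02D3.1, chrX:13700820-13700940: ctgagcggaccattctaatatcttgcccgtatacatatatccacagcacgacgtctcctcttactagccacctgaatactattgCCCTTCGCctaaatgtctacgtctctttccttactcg
between dpy-23 and D1079.1, chrX:4395572-4395692: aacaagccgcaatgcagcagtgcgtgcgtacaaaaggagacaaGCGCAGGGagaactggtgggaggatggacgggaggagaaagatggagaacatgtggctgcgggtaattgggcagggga
between T27A8.7 and T27A8.2, chrX:16056526-16056646: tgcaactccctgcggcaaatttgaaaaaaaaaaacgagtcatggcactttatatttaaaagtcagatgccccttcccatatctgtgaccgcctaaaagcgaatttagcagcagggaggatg
between tnt-3 and dct-1, chrX:7951661-7951781: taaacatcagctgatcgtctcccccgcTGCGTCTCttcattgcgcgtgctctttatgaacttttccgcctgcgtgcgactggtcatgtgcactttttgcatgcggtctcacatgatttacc
In the mom-1 intron, 2 copies stood on the same strand on the left side of the summit and another lay beyond the printed stretch. Between F20B6.9 and hpk-1, a copy of CCCTGCGC was followed by GCGAAGGG, so the copies faced opposite ways. In the Y41G9A.17 intron both copies were on the minus strand.

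Strength was low for most of the 1505 peaks. The deposited lists give each peak a strength, the authors' own value, whose scale is not given in the sources used here and which is used only within a list. Strength ran from 25.1 to 354 with a median of 31.1, and 116 peaks were above 50 and 10 above 200. The authors also deposited a thresholded list, filtered by irreproducible discovery rate (IDR), which holds the 660 strongest of the pooled peaks. It held 34 of the 1505 X peaks outside promoters (2.26%, exact Clopper-Pearson 95% interval 1.57 to 3.14), against 4.39% of all nuclear pooled peaks. The share was 7.03% for peaks in X promoter windows. It was 1.35% for the 7387 autosomal peaks outside promoters, below that on X (Fisher's exact test, two-sided, with odds ratio 1.68 and adjusted p = 0.0211). Peaks are not independent of each other and come from 1 pooled list, so this p and all those below cover counting only.

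**Figure D1:**
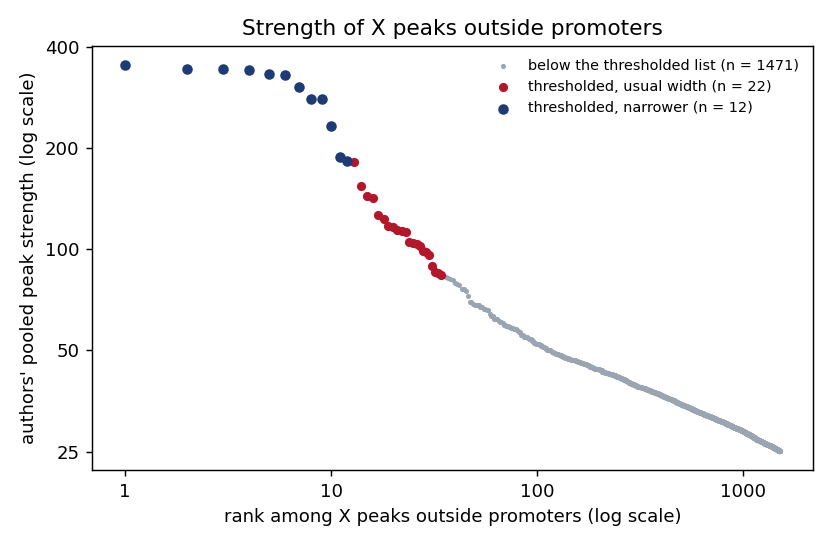
The authors' pooled strength (vertical axis, log scale, no unit given) of each of the 1505 X peaks outside promoters against its rank (horizontal axis, log scale), with 1 point per peak. The 12 narrower thresholded peaks hold ranks 1 to 12 with strengths from 183 to 354, and the 22 thresholded peaks of the usual width run from 83.8 to 183.

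The peaks fell into a steep head and a long shallow tail, as the plot of strength by rank shows. The narrow peaks were at the top of the list. Of the 1505 peaks, 1493 were 436 bp wide, the usual width in the list, and the other 12 were narrower, at 123 to 292 bp. Those 12 were the 12 strongest, with strengths from 183 to 354. The other 22 thresholded peaks were all 436 bp wide, with strengths from 83.8 to 183. Among the 100 thresholded autosomal peaks outside promoters, 13 were narrower than 436 bp, and among all 7387 autosomal ones 15 were. On X, strength had no break between the narrow and the other peaks, with 183.17 at rank 12 and 182.7 at rank 13. This split by width was made after the values were seen and has no test.

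The strongest X peaks outside promoters were strong in both replicates. In the mom-1 intron, the site with the highest pooled strength (354), the strength was 163 in replicate 1 and 195 in replicate 2. Between gtr-1 and F25E2.2 it was 171 in each replicate. Between W04G3.11 and W02H3.3 it was 196 in replicate 1, the highest there, and 156 in replicate 2. All 12 narrow peaks were among the 12 strongest of replicate 1 and 10 of them among the 12 strongest of replicate 2. Of the 34 thresholded peaks, 29 were among the 34 strongest of replicate 1 and 28 among those of replicate 2. The pooled list was derived from both replicates, so these values and counts are descriptions and not separate evidence of agreement.

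A peak counted as found in a replicate when the replicate's own list, background calls included, had a summit within 100 bp. Both replicates held 33 of the 34 thresholded peaks (97.1%, exact Clopper-Pearson 95% interval 84.7 to 99.9). The thresholded list was made by IDR from these same replicate lists and the pooled list, so this overlap, and its contrast with weaker peaks, is a description and not separate evidence of agreement. The exception lay between F56C3.1 and F56C3.9 (pooled strength 144), with strength 73.03 in replicate 1 and no replicate 2 summit within 100 bp. An overlapping pooled peak in the same gap, with its summit 199 bp away, had strength 72.4 in replicate 2 and no match in replicate 1. Among weaker peaks at or above the median strength of the 1505, both replicates held 314 of 719 (43.7%), and below the median 53 of 752 (7.05%). In all, 400 of 1505 were found in both replicates (26.6%, interval 24.4 to 28.9) and 182 in neither, and the share found in both was 24.4% for autosomal peaks outside promoters.

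**Figure D2:**
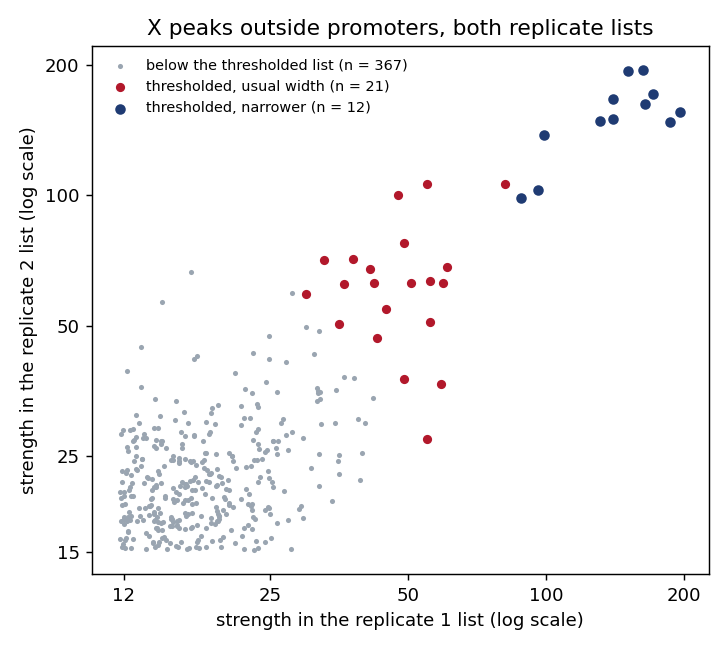
Strength in the replicate 2 list against strength in the replicate 1 list (both axes log scale, no unit given) for the 400 X peaks outside promoters found in both lists, with 1 point per peak. The narrow thresholded peaks lie together at the upper right, and the 367 peaks below the thresholded list lie at the lower left. The thresholded list was itself filtered on these replicates.

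Across the 400 peaks found in both replicates, Spearman's rho of strength was 0.42 and Pearson's r of log2 strength was 0.77. These values describe peaks that share their libraries and are not tests.

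Each summit was placed in 1 gene context, with exons taken before introns, introns before noncoding genes, and the rest called intergenic. Exons held 460 of the X peaks outside promoters (30.6%), introns 498 (33.1%), noncoding genes 54 (3.59%) and intergenic sequence 493 (32.8%). On the autosomes exons held 41.2%, so the exon share was lower on X (Fisher's exact test, two-sided, with odds ratio 0.628 and adjusted p = 4.56e-14). Intergenic sequence held 23.9% of the autosomal peaks, and its share was higher on X (Fisher's exact test, odds ratio of 1.55 and adjusted p = 7.77e-12). The shares in introns (31.3% on autosomes, adjusted p = 0.205) and noncoding genes (3.60%, adjusted p = 1.0) did not pass the same exact test. X also differs from the autosomes in its sequence: of the bases open to such peaks, exons made up 25.8% on X and 30.2% on autosomes, and intergenic bases 37.4% and 27.4%. Per open Mb of their own context, intergenic peaks numbered 96.1 on X and 108 on autosomes, so their higher share on X was not a higher density. Exonic peaks numbered 130 and 168 per open Mb, intronic ones 110 and 103, and those in noncoding genes 105 and 91.8.

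**Figure D3:**
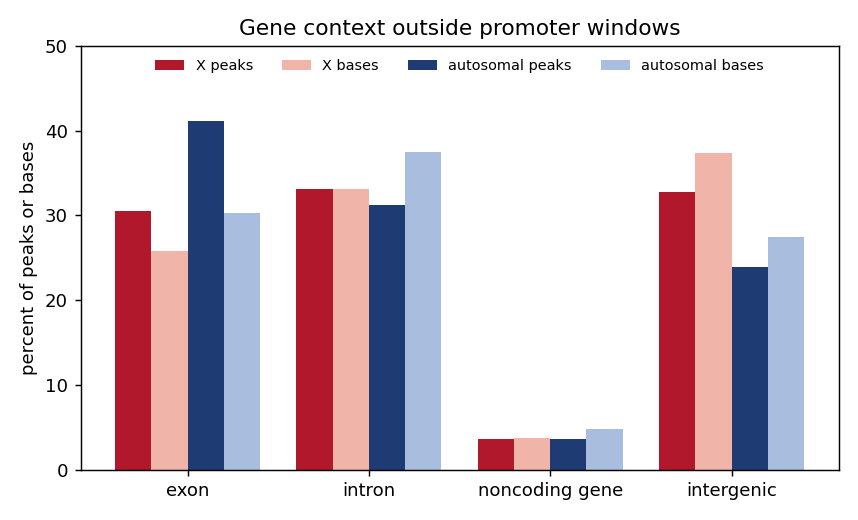
Percent of peaks outside promoters, and of the bases where such a peak could lie, in each gene context (horizontal axis), for X (red) and the autosomes (blue); each bar is a share of 1 pooled list or genome, with no error bar. On both X and autosomes the exon share of peaks exceeds the exon share of bases, and the intergenic share of peaks is below that of bases.

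The plot of gene context shows that exons held a larger share of peaks than of open bases on X, 30.6% against 25.8%. The thresholded peaks were placed differently from the rest. Only 1 of the 460 exonic X peaks was thresholded, against 26 of the 493 intergenic ones (5.27%). Among the intronic ones it was 5 of 498 (1.00%), fewer than among intergenic ones (Fisher's exact test, two-sided, with odds ratio 0.182 and adjusted p = 0.000167). Noncoding genes held 2 thresholded peaks of 54. Median strength differed little between exons (30.9), introns (30.5) and intergenic sequence (31.5). It was higher, at 36.9, for the 54 peaks in noncoding genes, against 31.5 for autosomal peaks in noncoding genes.

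The strongest intergenic peak lay between adm-2, an ADAM-family metalloprotease gene, and K02D3.1, at 13700733 to 13700993, with strength 345 pooled, 151 in replicate 1 and 194 in replicate 2. The summit was 6027 bp away from the start of K02D3.1 and 12925 bp from that of adm-2. Between F20B6.9 and hpk-1, a homeodomain-interacting protein kinase gene, at 4209177 to 4209417, the values were 334 pooled, 186 and 148. Between ZK899.6 and gap-2, a Ras GTPase-activating protein gene, at 9465723 to 9465968, they were 330 pooled, 165 and 163. All of these were above every usual-width thresholded peak in both replicates, none of which exceeded 81.3 in replicate 1 or 106 in replicate 2.

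Further along, the site between dot-1.4, of the DOT1 family of histone methyltransferases, and F55G7.5 had strength 304 pooled, with 140 in replicate 1 and 167 in replicate 2. The site between F22H10.2 and F22H10.11 had 233, with 99.1 and 138. Those between T27A8.7 and T27A8.2 (188) and between C30E1.4 and F52G3.8 (183) were the weakest of the narrow peaks. The strongest peak of usual width lay between F19H6.6 and F19H6.5 at 183, with 81.3 in replicate 1 and 106 in replicate 2.

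The remaining intergenic thresholded peaks had strengths from 83.8 to 144. They lay beside genes of several kinds, named from either side and not always the nearer. The start of lgc-40 was 4835 bp from the summit, and that of T24D8.6, on the other side, 1058 bp. For lgc-53 and hda-4 the distances were 14557 and 2464 bp, and for eat-20 and olrn-1 18708 and 2197 bp. Signalling and channel genes were lgc-40 (142) and lgc-53 (98.2), both of a ligand-gated ion channel family, and npr-24 with the trehalose-phosphate synthase gene tps-1 (84.9). Regulators of transcription were hlh-29, a bHLH factor (117), sma-9, a Schnurri homologue in the BMP pathway (116), mdl-1, related to MAD (113), and the histone deacetylase gene hda-4, next to lgc-53. Among the others were atrn-1 with tmem-184 (127), olrn-1 with the Crumbs-like gene eat-20 (115), C55B6.4 with F43E12.1 (114), rei-2 with pigx-1 (105), and cdk-4, a cell cycle kinase, with the collagen gene col-185 (99.0). The 14-3-3 gene ftt-2 (96.6), dpy-23, the AP2 adaptor mu subunit (89.3), and mig-15, a kinase of the NIK family (85.6), also stood next to 1 such peak each. Of these 26 intergenic peaks, 5 lay within 500 bp of a coding gene's 3′ end.

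Intronic thresholded peaks numbered 5. The strongest was in mom-1, which encodes the worm Porcupine, needed for Wnt secretion, at 6296445 to 6296736. The next was in Y41G9A.17 at 2996999 to 2997270 (281 pooled, 140 in replicate 1, 150 in replicate 2). Those in F09A5.3 (154), in ldb-1, a LIM-domain-binding protein gene (105), and in nhr-3, a nuclear receptor gene (104), were weaker. In their own lists these last 3 had 55.0, 32.8 and 36.3 in replicate 1 and, on that list's scale, 106, 70.9 and 62.5 in replicate 2. The only exonic thresholded peak was in pks-1, a polyketide synthase gene, at 5429485 to 5429662, with 281 pooled, 131 in replicate 1 and 149 in replicate 2. It lay 15209 bp from the nearest coding 5′ end, the farthest of the 34.

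In noncoding genes, the thresholded peaks lay in the ncRNA gene R03E9.10 between mdl-1 and abts-4, an anion transporter gene (123), and in C14F5.10 between tnt-3, a troponin T gene, and dct-1 (103). Including those that also lie in coding genes, 65 X peaks outside promoters stood in genes annotated as ncRNA, of which X has 2520. Pseudogenes held 11 and lincRNAs 8. The strongest pseudogene peak, in WBGene00020829, had strength 63.2, and the strongest in a lincRNA had 35.7. Only 1 microRNA gene held a peak, cel-mir-49, at 33.5, and 1 antisense RNA gene did, anr-17, at 28.5. Annotated tRNA pseudogenes, 29 on X in RefSeq, had 3 peaks within 250 bp, the strongest at 48.5.

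Peaks just inside and just outside the thresholded list were alike in strength. The lowest inside lay between R11.3 and R11.4 at 83.8, with 35.5 in replicate 1 and 50.4 in replicate 2. The highest outside lay 3659 bp away in the same gap at 83.6, with 28.0 and 59.4. Next came an abts-4 intron at 82.9 and the ncRNA gene M163.12 at 82.4. The strongest exonic peaks after pks-1 were in col-19, an adult cuticle collagen gene that overlaps ZK1193.2 (78.9), in osm-11 (75.1), in his-24, a linker histone H1 gene (68.3), and in let-2, a type IV collagen gene (64.0). That in osm-11 had no match in replicate 1, and that in his-24 lay 217 bp from its gene's 5′ end, just past the window.

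Inside genes, 668 of 2731 coding genes on X (24.5%) held at least 1 of these peaks, and the genes with the most held weak ones. Neighbouring peaks can overlap: 179 of the 1505 had another summit less than 436 bp away. The heterochronic regulator lin-14 held 11, the most of any X gene, with strengths from 25.4 to 69.8, of which 9 were intronic. They were spread from 1920 to 20208 bp past the gene's start. Their strengths in order along the gene were 61.9, 43.7, 40.8, 69.8, 53.8, 32.7, 37.5, 27.9, 36.8, 25.4 and 45.1. Some of them overlap, and merged where they do, the 11 make up 8 separate regions. Of the 11, 6 were found in both replicates, and none was thresholded.

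After lin-14, H18N23.2 and ZK470.2 held 9 each, scd-1 8 and nhr-27, a nuclear receptor gene, 6. Per kb open to such peaks, lin-14 had 0.612, ZK470.2 1.01 and nhr-27, which is 102756 bp long, 0.0731. In let-2 there were 5, at 64.0, 37.3, 36.2, 30.1 and 28.9, and in mbk-1, a DYRK-family kinase gene, also 5, from 29.3 to 48.1. The calcium channel gene unc-2 also had 5, from 25.9 to 32.0. None of the peaks in these genes was thresholded.

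All X coding genes together held 118 peaks per Mb of open gene sequence. Nuclear receptor genes named nhr had 122 and homeobox genes named ceh 149, from 21 and 9 peaks. Genes named unc had 110, potassium channels named twk 100, and ligand-gated channels named lgc 81.6. The 6 genes named lin had 303, with 11 of their 13 peaks in lin-14. No test was made of these rates.

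The peaks lay along the whole of X. Per Mb open to such peaks there were 110 on X and 124 on the autosomes, and for thresholded peaks 2.48 and 1.67. Cut into 3 equal parts from left to right, X held 519, 457 and 529 peaks, in them, or 112, 102 and 115 per open Mb. Their thresholded peaks numbered 8, 11 and 15. In bins of 1 Mb the density ran from 79.6 to 135, and no thresholded peak lay from 3 to 4 Mb or from 8 to 9 Mb, while 5 lay from 16 to 17 Mb.

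Thresholded peaks ran from 806666, between gtr-1 and F25E2.2, to 17544500, between F31A3.3 and hlh-29. Gaps between neighbouring ones ran from 6312 to 1514138 bp with a median of 437775. The smallest gap separated the 2 peaks on either side of mdl-1. The 12 narrow peaks stood farther apart, with gaps from 247661 to 3169273 bp.

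The median X peak outside promoters lay 1964 bp from the nearest coding 5′ end, and the median thresholded one 2847 bp, with a range from 1041 to 15209 bp. More than 5000 bp away were 134 of the 1505 (8.90%) and 6 of the 34. Peaks at the edge of the rule were weak: 58 lay within 100 bp outside a promoter window, with median strength 31.3, highest 68.3 and none thresholded. Just inside, 82 promoter peaks within 100 bp of an edge had median 30.7 and highest 260, with 5 thresholded. At the other edge of the rule, 3 peaks lay up to 500 bp from a small RNA gene, the strongest at 52.1.

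The letters shared by the strongest X peaks were absent from the thresholded autosomal peaks outside promoters. GCGNAGGG was picked out from these summits after their sequences were seen, so its counts are descriptions with no test. Both strands were searched, 100 bases to either side of each summit. The word stood at 16 of the 34 thresholded X peaks outside promoters (47.1%) and at 18 of the 1471 others (1.22%). It stood at 0 of the 100 thresholded autosomal peaks outside promoters, where a count of 0 allows up to 3 peaks, and at 49 of all 7387 (0.663%). Windows of the same length that tile the chromosomes held it in 0.432% on X and 0.355% on the autosomes.

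Within X, the word was most frequent at the top of the list. All 10 of the strongest pooled peaks held it, as did all 10 of the strongest in replicate 1's own list and all 10 in replicate 2's. Those lists largely hold the same sites, so the 3 counts are not separate evidence. Ranks 11 and 12, between T27A8.7 and T27A8.2 and between C30E1.4 and F52G3.8, did not hold it. Of the 22 thresholded peaks of usual width 6 held it, and of the 34 ranked just below the thresholded list 3 did. The 12 narrow peaks held 18 copies in all, with more than 1 copy at 6 of them and at most 3. The word was not confined to X peaks outside promoters. Of the 5 narrow X peaks that the rule removed, 3 held it, and of the 97 thresholded X peaks that it removed, 5 did. None of the 13 narrow thresholded autosomal peaks outside promoters held the word.

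**Figure D4:**
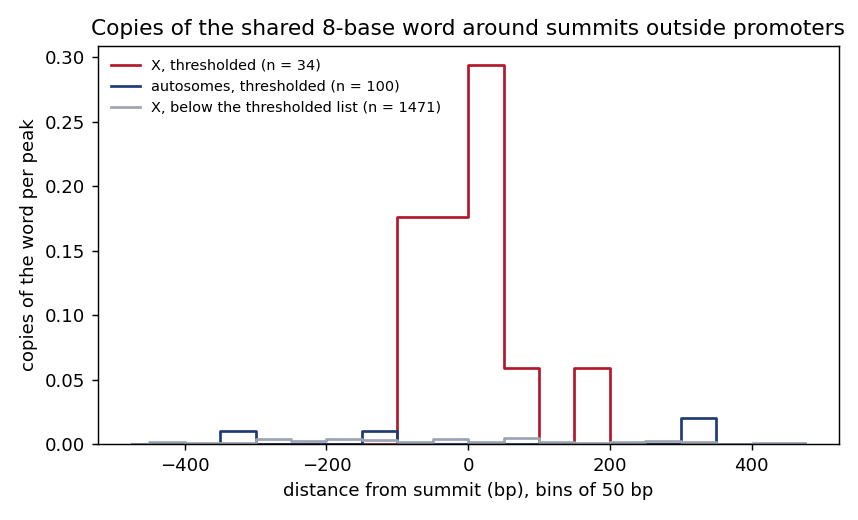
Copies of the shared 8-base word per peak (vertical axis) by distance from the summit in bp (horizontal axis, bins of 50 bp, both strands), for thresholded X peaks outside promoters (n = 34), the other X peaks outside promoters (n = 1471) and thresholded autosomal ones (n = 100). At the 34 thresholded X peaks, 24 of the 26 copies within 500 bp lie within 100 bp of the summit.

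Copies lay close to the summits, as the plot of copies by distance shows. Within 100 bp of the 34 thresholded summits there were 24 copies, and in the next 400 bp on both sides 2. In the bin from 0 to 50 bp to the right there were 0.294 copies per thresholded peak, against 0.00136 per weaker one. In the mom-1 intron the nearest copy was centred 7 bp from the summit, in the pks-1 exon 1 bp, and next to dot-1.4 79 bp.

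The forms of the word with C and with A at N were also counted apart. GCGCAGGG stood at 11 of the 34 thresholded X peaks and 4 of the 1471 others. GCGAAGGG stood at 9 of the 34 and 4 of the 1471. Neither stood at any of the 100 thresholded autosomal peaks. The X chromosome has 81 copies of GCGCAGGG and the autosomes 233. Of the 81, 25 lay within 100 bp of a pooled X summit of any kind, 14 of them at thresholded peaks outside promoters and 4 at other thresholded X peaks. Most copies, 56 of 81, had no pooled summit that close.

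A longer word was rarer. ATCGCGCAGGGA, also chosen from these summits, occurs 10 times on X and 1 time on the autosomes. All 10 copies on X lay within 82 bp of a pooled summit, and 9 of them at thresholded peaks. Of those 9, 6 were at peaks outside promoters: the mom-1 intron, the Y41G9A.17 intron, and the gaps at hpk-1, W02H3.3, cdk-4 and F22H10.2. The other 3 were at 2 strong peaks that the rule removed, with strengths 237 and 319. The remaining copy was at a weaker peak of strength 42.4 in the Y41G9A.17 intron, beside the strong one.

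Among the 18 weaker X peaks with GCGNAGGG, strengths ran from 27.0 to 63.2. The highest were the peak in the pseudogene WBGene00020829 (63.2), one between F31A3.3 and hlh-29 (61.4) and one between Y62H9A.9 and Y62H9A.10 (60.4). Introns of pqn-18 (45.8) and of the casein kinase gene kin-20 (29.7) also held one each. Of the 18, GCGCAGGG stood at 4 and GCGAAGGG at 4, so most held another base at N. So the word with any base at N was present at some sites of low strength as well.

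ACGCAG, a leading word of an earlier analysis of these data, and GAGAGA had lower shares at thresholded X peaks than at autosomal ones. No test was made of these words. These counts are from 50 bases to either side of the summit. ACGCAG stood at 6 of the 34 (17.6%) and at 26 of the 100 thresholded autosomal peaks outside promoters, and GAGAGA at 6 and 40. Both shares on X were above those of the weaker X peaks, 2.72% for ACGCAG and 6.87% for GAGAGA. In X windows of the same length the shares were 1.77% and 4.91%. Between X and autosomes GCGCAG went the other way, with 10 of the 34 on X (29.4%) and 8 of the 100 on autosomes. Its share was 2.79% at the weaker X peaks and 1.16% in X windows of that length. GCGCAG is part of GCGCAGGG, which was chosen from these same summits, so its count is not a separate observation. ACGCGC stood at 4 and 8, and CACACA at 4 and 15. TTAGGC, the worm telomere repeat unit, stood at 5 and 2, against 1.63% of the weaker X peaks. GTTCGA, the core of the B box of tRNA genes, stood at 0 of 34 and at 4 of the 100, against 3.20% of the weaker X peaks. The rule had removed summits within 250 bp of tRNA genes, which limits the count of this word. The longer word GAGACGCA, chosen after seeing the data, stood within 100 bases of 6 of the 34 and of 29 of the 100.

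Thresholded X summits were richer in G and C than their surroundings. Over 50 bases to either side, G and C made up 46.8% ± 9.15 (SD over 34 peaks) at the summit and 32.6% in windows 500 bp to either side. At the 1471 weaker peaks the values were 40.1% ± 10.5 and 35.5%, and over the whole X 35.2%. AAAAAT, a word without G or C, stood at 17.6% of the thresholded summits, at 32.2% of the weaker ones and in 45.1% of X windows. Repeat-masked bases made up 10.2% at thresholded summits, 21.6% at weaker ones and 30.6% of the whole X. These traits were not particular to X. At the 100 thresholded autosomal peaks outside promoters, G and C made up 48.8% at the summit and 37.2% in the windows beside it. Of those autosomal summits 17.0% held AAAAAT, and 17.7% of their bases were masked. Composition therefore moved with strength, and its part in the word counts was not tested.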

How the data were processed

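ChIP-seq of ZFP-2::GFP in L4 hermaphrodites was analysed from deposited peak lists on ce11: 1 for each of 2 biological replicates, 1 pooled and 1 thresholded by IDR. Per the submitters' description file, the replicate and pooled lists hold peaks and background calls that served as IDR input. Each peak's strength is the authors' signal value from column 7 of these deposited lists, used within a list only, and column 10 gave the summit. Which aligner and caller were run, and at which IDR threshold, is not given in the sources used here. The depth of the libraries is unknown, so no interval rests on reads, and a linked control was not used here. The labels call the libraries biological replicates.

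Coordinates are 1-based. Genes came from Ensembl release 115 (WBcel235, the sequence of ce11), with 29784 5′ ends of 19973 protein-coding genes, and sequence and tRNA pseudogenes from RefSeq. The 18 mitochondrial peaks were left out. A peak was matched to the thresholded list by position, summit and strength, and to replicate lists by a summit within 100 bp. Shares were compared by 6 two-sided Fisher's exact tests on peaks, with Benjamini-Hochberg adjustment over the 6 at a threshold of 0.05; the tests were checked on simulated data. Named genes are the host, or the gene of the nearest 5′ end on each side, of every thresholded member, of the 5 strongest in each context and of those at the list's edge, plus the 5 genes with most peaks. Other genes were named after their values were seen. Members, lists and words were chosen with earlier results of these data known. Alternatives covered window size, the small RNA distance, peak midpoints, stronger peaks, the thresholded list's size, the match distance and each replicate's own list. The tools were scipy 1.17.1, pandas 2.3.3 and numpy 2.4.6 under Python 3.11.15, with figures by matplotlib 3.10.9.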

Additional observations from a re-analysis of the deposited data

How the results depend on the processing

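Over 66 values recomputed under 10 alternatives, all 4 comparisons that passed the test kept their direction and side of the threshold in every alternative run. Neither comparison that missed it passed under any of them, but both changed direction. The odds ratio for noncoding genes, 0.996, became 1.16 with a 2000 bp window, 1.03 with peak midpoints and 1.39 among peaks at or above the median strength. It was 1.01 to 1.06 in the replicates' own lists. That for introns, 1.09, was 0.919 to 1.05 in those lists. Peaks at or above the median strength of the pooled list numbered 651, with median strength 38.7. The replicates' own lists held 1827 to 2279 X peaks outside promoters, with median strengths 15.03 to 18.97 on their own scales. In the stronger 330 of the thresholded peaks, 19 were X peaks outside promoters in place of 34. The share found in both replicates was 16.1% with matches within 50 bp and 39.8% within 250 bp. By construction, a cut at the median strength lowers the count and raises the median. A shorter thresholded list likewise cannot hold more peaks, and a wider match distance cannot lower the share. The cause of the other shifts was not tested. No paired analysis was possible because both replicates belong to 1 group. Weak calls limit the counts: most peaks below the median strength were not found in both replicates, and without a control or depth, background cannot be told apart from weak binding.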
